A study of Papio anubis with 25 samples.

Results

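The genes described here are 7 genes by which liver makes, stores and releases glucose and takes up fructose: PCK1, FBP1, GCKR, GYS2, PYGL, KHK and SLC2A2. They were picked by symbol and role, with earlier results of these data known. Of the 7, 6 had a row among the 21287 genes of the deposited table. FBP1, the gene of fructose-1,6-bisphosphatase, had no row under that symbol and was not analysed here.

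The RNA came from the liver, pancreas, parotid gland, submandibular gland and sublingual gland of 5 olive baboons (Papio anubis). Each tissue of each animal gave 1 library, for 25 libraries in all, so tissues can be compared within animals. The animals numbered 1 to 4 were labelled female and animal 5 male, and the labels gave neither an age nor a treatment nor a genetic modification, so tissue is the only factor and the sexes cannot be compared. Expression was given as TPM, a relative transcript abundance that is corrected for transcript length and so can be compared between genes, with no record of sequencing depth. RNA was taken from thin sections of frozen tissue. In such bulk samples, fewer cells of a type and less RNA per cell cannot be told apart.

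The liver is the organ that keeps blood glucose steady between meals. In gluconeogenesis, PCK1 makes phosphoenolpyruvate, fructose-1,6-bisphosphatase removes a phosphate from fructose 1,6-bisphosphate, and glucose-6-phosphatase releases glucose. GYS2 builds and PYGL breaks down hepatic glycogen, the low-affinity transporter SLC2A2 (GLUT2) lets glucose and fructose cross the hepatocyte membrane, and GCKR is a regulatory protein that helps set how fast hepatocytes trap glucose. KHK (ketohexokinase) phosphorylates fructose in the first step of its breakdown, and TKFC acts at a later step.

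The sections carried the markers of their labelled liver and pancreas, whereas the gland sections were mixed. The 12 hepatocyte markers (ALB, APOA1, FGB and others) summed to between 85728.5 and 106974 TPM in liver and to between 205 and 1530 TPM in the other 20 libraries, and none of them was at 0 in any library. The 7 pancreatic acinar markers summed to at least 154092 TPM in pancreas and to no more than 3639 TPM elsewhere. The 6 salivary secretory markers spanned 2045 to 20431 TPM in parotid, 2197 to 70340.3 TPM in submandibular and 1446 to 324978 TPM in sublingual gland, and each of these ranges overlapped that of liver, 945 to 4430 TPM. Other tissue was prominent in 6 gland libraries. Adipocyte markers summed to 21855 TPM in the parotid library of animal 2 and 6953 TPM in the submandibular library of animal 5, lymphoid markers to 953.5 TPM in the parotid library of animal 5, and skeletal muscle markers to 95166 TPM in the sublingual library of animal 2. Stratified mucosa markers summed to 108702 and 47405 TPM in the sublingual libraries of animals 1 and 4. Values without these libraries stand beside the PYGL and GCKR differences between glands and the family shares. The submandibular library of animal 2 is not among the 6 and stays in those values. It held the lowest salivary secretory sum of its tissue, 2197 TPM, beside 44009 to 70340.3 TPM in the other submandibular libraries. Its adipocyte markers summed to 2828 TPM.

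All 6 measured genes were higher in liver than in each of the other 4 tissues. By limma with Benjamini-Hochberg adjustment over 14991 genes, with a call defined by an adjusted p under 0.05 together with a difference of at least 1 in log2(TPM + 1), 6 of 6 were called higher in liver in each comparison. The background of that count was 14.6% of all genes called higher in liver against pancreas, 10.9% against parotid, 13.9% against submandibular and 9.52% against sublingual gland. Liver exceeded the other tissue within 5 of 5 animals for every one of the 24 gene and tissue pairs. The median difference of the 6 genes was 5.13, 5.51, 5.73 and 5.14 log2 units against pancreas, parotid, submandibular and sublingual gland, beside medians over all genes of 0.44, -0.01, 0.27 and -0.17. Scaling the libraries by the trimmed mean of M values (TMM) moved the all-gene medians to 0.03, -0.06, -0.01 and -0.08. Among called genes, the same scaling brought the percentage with higher levels in liver from 83.7%, 79.4%, 84.2% and 61.6% to 61.2%, 64.4%, 61.6% and 60.5%, while 6 of 6 members were still called in each comparison.

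**Figure D1:**
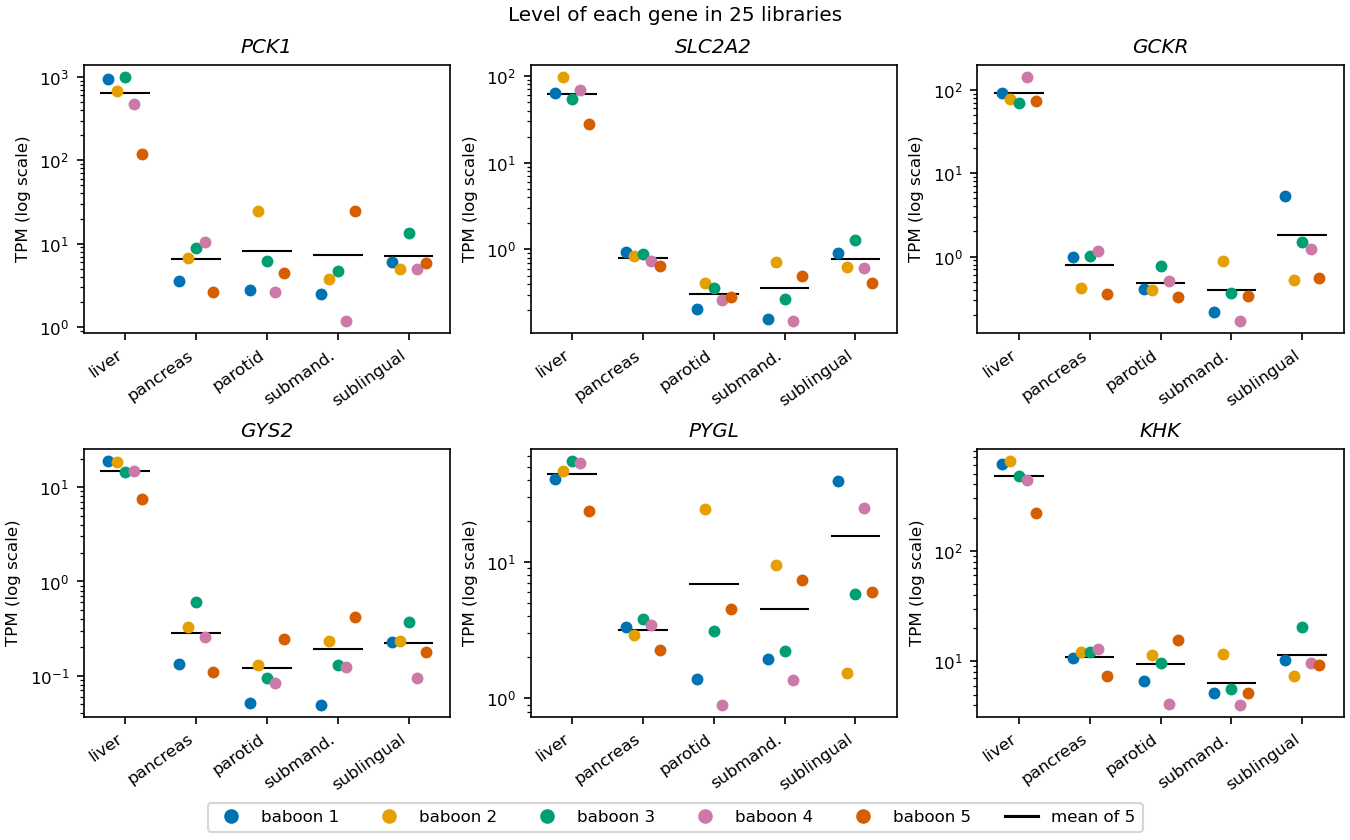
TPM (log axis) of the 6 measured genes in each of the 25 libraries, 1 panel per gene, with points grouped by tissue and coloured by animal. For PCK1, GCKR, GYS2, KHK and SLC2A2 all 5 liver libraries lie above all 20 others, whereas for PYGL the sublingual libraries of animals 1 and 4 and the parotid library of animal 2 reach the liver values.

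PCK1, the cytosolic phosphoenolpyruvate carboxykinase, was the most abundant of the 6 in 4 of the 5 livers and also the most variable. In liver it stood at 938, 674, 988, 470.4 and 119.7 TPM in animals 1 to 5, a mean of 638 ± 357 TPM (SD, n = 5). Animal 5 was far below the other 4 livers, yet its value was still 4.80 times the highest library of any other tissue. In pancreas PCK1 was at 3.55, 6.79, 8.86, 10.5 and 2.63 TPM in the same order of animals. In parotid gland it was at 2.79, 25.0, 6.19, 2.62 and 4.47 TPM. The parotid library of animal 2 was the high one, and the other 4 lay within the pancreas range or at its lower edge. In submandibular gland the values were 2.49, 3.78, 4.72, 1.19 and 24.7 TPM, and in sublingual gland 6.09, 4.98, 13.6, 5.03 and 5.81 TPM. Liver did not overlap any other tissue. The liver mean was 98.8 times that of pancreas, a difference of 6.24 ± 0.64 (SE) on the log2(TPM + 1) scale with an adjusted p of 4.347e-08 by limma, and the differences from the 3 glands lay between 6.08 and 6.53.

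The 2 highest PCK1 values outside liver were in the 2 libraries richest in adipocyte markers. The parotid library of animal 2 and the submandibular library of animal 5 held PCK1 at 3.91% and 3.87% of the liver mean, beside a median of 0.785% over the 20 libraries that are not liver. Adipocytes also use PCK1, for glyceroneogenesis. The submandibular library of animal 2 held the next highest adipocyte sum, 2828 TPM, with PCK1 at 3.78 TPM, and in the other 17 libraries that are not liver the sum was between 14.9 and 403 TPM with PCK1 between 1.19 and 13.6 TPM. The part of these markers in the PCK1 values was not tested.

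**Figure D2:**
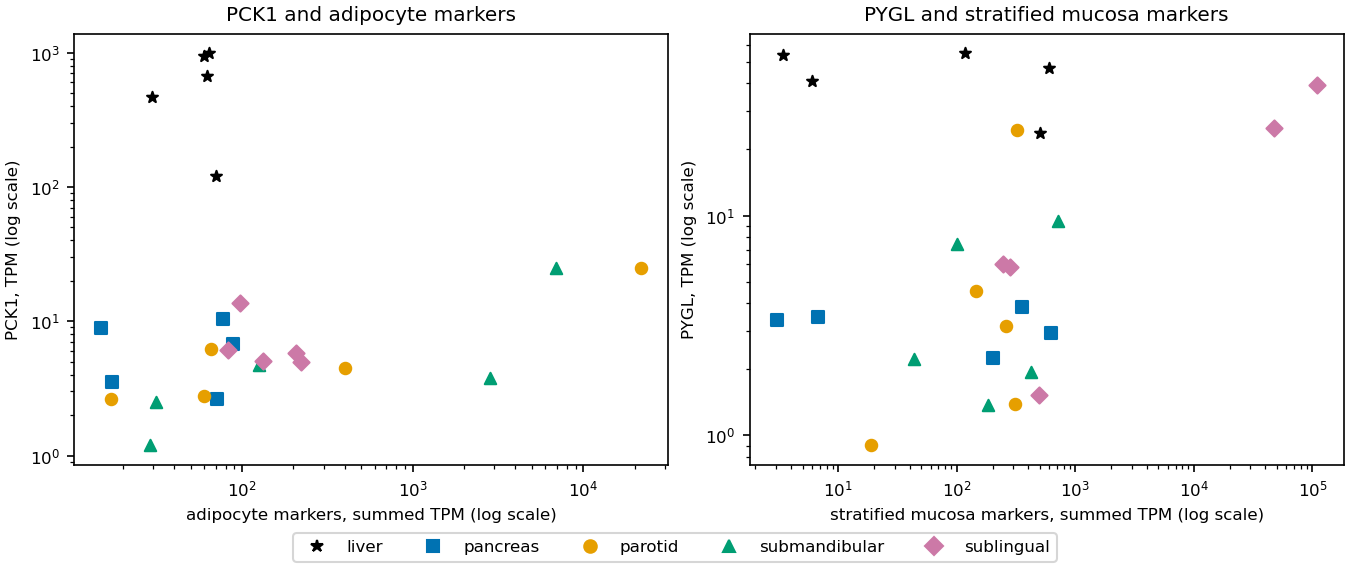
PCK1 against the summed adipocyte markers (left) and PYGL against the summed stratified mucosa markers (right), all in TPM on log axes, with 1 symbol per library and liver shown as stars. Outside liver, the 2 highest PCK1 values (25.0 and 24.7 TPM) are in the 2 libraries with the most adipocyte markers, and the 2 highest PYGL values (39.3 and 25.1 TPM) in the 2 with the most mucosa markers.

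SLC2A2 had the widest gap of the 6 genes between the lowest liver and the highest other library, as a ratio of TPM. On the log2(TPM + 1) scale PCK1, GCKR and KHK had larger mean differences from each tissue. SLC2A2 stood at 64.4, 96.3, 53.7, 68.3 and 27.8 TPM in the livers of animals 1 to 5 (62.1 ± 24.8 TPM, SD, n = 5). The lowest of these was 21.7 times the highest value in any other tissue. In pancreas it was at 0.92, 0.84, 0.89, 0.73 and 0.65 TPM. In parotid gland the values ran from 0.21 to 0.41 TPM, in submandibular gland from 0.15 to 0.71 TPM and in sublingual gland from 0.41 to 1.28 TPM. Every library outside liver was thus near or below 1 TPM. The difference between liver and pancreas was 5.02 ± 0.29 (SE) log2 units, with an adjusted p of 3.114e-12 by limma. Against the 3 glands it was between 5.07 and 5.49.

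SLC2A2 is also known from pancreatic beta cells of rodents. In the pancreas its mean of 0.81 ± 0.12 TPM (SD, n = 5) was 1.30% of the liver mean. All 5 pancreas values lay above all 5 parotid values, and pancreas was higher within 5 of 5 animals. The difference of -0.47 log2 units (parotid minus pancreas) was not called by limma (adjusted p = 0.3657). Its SE of 0.29 was the same as in the comparisons with liver, where SLC2A2 varied far more in TPM. At such low levels a difference of 1 also could not be reached. The missed call thus does not show equal levels in pancreas and parotid gland. The 8 islet markers summed to 5972, 605, 4896, 763 and 13847 TPM in the pancreas libraries of animals 1 to 5. The library of animal 5 had the highest islet sum and the lowest SLC2A2 of the pancreas libraries. That library also had the lowest hepatocyte marker sum of the pancreas libraries, 421 TPM. Across the 20 libraries that are not liver, which include all 4 tissues, SLC2A2 and the islet sum had a Pearson r of 0.70 on the log2 scale. SLC2A2 and the hepatocyte marker sum had a higher r, 0.75, over the same libraries. The sublingual libraries, with islet sums of 29.8 to 860 TPM, held SLC2A2 at a mean of 0.77 TPM. Their SLC2A2 range overlapped that of pancreas and also lay above that of parotid gland. The islet list holds G6PC2, whose values did not separate the tissues, and SLC30A8 was at 0 in all 5 sublingual libraries. The islet sums outside pancreas, and the r that uses them, thus do not measure islet RNA alone.

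GCKR stood at 91.3, 78.7, 69.6, 141 and 73.8 TPM in the livers of animals 1 to 5 (91.0 ± 29.3 TPM, SD, n = 5). Animal 4 was the high liver. Outside liver it ranged from 0.36 to 1.18 TPM in pancreas, 0.32 to 0.77 TPM in parotid and 0.17 to 0.88 TPM in submandibular gland. The sublingual libraries gave 5.31, 0.52, 1.51, 1.23 and 0.55 TPM, so that animal 1 held the highest GCKR outside liver, 5.84% of the liver mean. The liver exceeded the pancreas by 5.66 ± 0.34 (SE) log2 units, with an adjusted p of 5.222e-12 by limma, and the glands by 5.20 to 6.01.

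GYS2, the liver glycogen synthase, was the least abundant of the 6 genes in liver. It stood at 18.8, 18.3, 14.6, 14.8 and 7.42 TPM in the livers of animals 1 to 5 (14.8 ± 4.56 TPM, SD, n = 5), and animal 5 was the low one. Elsewhere it did not exceed 0.61 TPM, and the lowest liver was 12.2 times the highest other library. Pancreas ranged from 0.11 to 0.61 TPM, parotid from 0.05 to 0.25 TPM, submandibular from 0.05 to 0.42 TPM and sublingual from 0.09 to 0.37 TPM. These ranges overlapped one another. The difference between liver and pancreas was 3.57 ± 0.25 (SE) log2 units with an adjusted p of 6.553e-11 by limma. The added 1 TPM understates such a change, because the ratio of the mean TPM values was 51.5.

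PYGL, the liver glycogen phosphorylase, was the member least restricted to liver. It stood at 40.8, 46.7, 54.7, 53.5 and 23.8 TPM in the livers of animals 1 to 5 (43.9 ± 12.6 TPM, SD, n = 5). In pancreas it was steady at 3.36, 2.94, 3.83, 3.46 and 2.26 TPM. In sublingual gland it was at 39.3, 1.52, 5.86, 25.1 and 6.00 TPM. The sublingual libraries of animals 1 and 4 therefore reached the liver range, and the other 3 stayed below every liver. In parotid gland PYGL was at 1.39, 24.6, 3.14, 0.90 and 4.55 TPM, where animal 2 exceeded the lowest liver. In submandibular gland it was at 1.94, 9.46, 2.23, 1.37 and 7.43 TPM, below all livers. In total 17 of 20 libraries lay below the lowest liver, that of animal 5, and all 20 lay below the other 4 livers, of which the lowest held 40.8 TPM.

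The PYGL difference between liver and pancreas was 3.39 ± 0.69 (SE) log2 units, with an adjusted p of 0.000806 by limma. Against parotid it was 3.16 (adjusted p = 0.002022) and against submandibular gland 3.24 (adjusted p = 0.001449). Against sublingual gland it was 2.04 ± 0.69, with an adjusted p of 0.04652, close to the threshold. This last call was lost in 7 of 15 alternative analyses, among them those without animal 2 (adjusted p = 0.07629), animal 3 (0.2282), animal 4 (0.06445) or animal 5 (0.1004). Without the 2 mucosa-rich sublingual libraries it was 3.42 ± 0.65, with an adjusted p of 0.000568 by limma. Those 2 libraries also carried neutrophil and monocyte markers at 50480.5 and 66667 TPM, whereas the sublingual library of animal 5, with 17550 TPM of these markers, held PYGL at 6.00 TPM. In the same 2 libraries lymphoid markers summed to 71.8 and 10.3 TPM and macrophage markers to 96.8 and 13.2 TPM. The neutrophil and monocyte list includes S100A8, S100A9 and LYZ, and its members are not given singly here, so its sum does not measure leukocyte content. Leukocytes are known to express PYGL. The part of the mucosa or leukocyte markers in the PYGL values was not tested.

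KHK was the second most abundant of the 6 genes in liver and had the highest level of the 6 in 16 of the 20 other libraries. It stood at 613, 646, 478, 438 and 219.7 TPM in the livers of animals 1 to 5 (479 ± 169 TPM, SD, n = 5). In pancreas it was at 10.6, 12.1, 12.1, 13.0 and 7.42 TPM. In parotid gland the values were 6.65, 11.3, 9.75, 4.13 and 15.7 TPM. The pancreas values lay within the parotid range. In submandibular gland KHK was at 5.14, 11.6, 5.59, 4.06 and 5.19 TPM and in sublingual gland at 10.4, 7.36, 20.6, 9.70 and 9.35 TPM. The lowest liver was 10.7 times the highest of these. The difference between liver and pancreas was 5.24 ± 0.40 (SE) log2 units with an adjusted p of 2.542e-10 by limma, and the differences from the glands lay between 5.25 and 6.02.

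TKFC and SORD, named here for their role beside KHK, were called higher in liver in all 4 comparisons by limma. TKFC, the triokinase, reached 145 ± 44.1 TPM in liver, beside tissue means of 8.38 to 13.6 TPM elsewhere, with differences of 3.35 to 3.96 log2 units. The ratio of KHK to TKFC was 3.34 ± 1.04 in liver and had means of 0.708 to 1.03 in the other tissues, and the lowest liver ratio, 2.25, lay above the highest ratio elsewhere, 1.68. SORD (sorbitol dehydrogenase), which makes fructose from sorbitol, was higher in liver by 3.51 to 5.53 log2 units.

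Between the tissues that are not liver, 0 of 6 members were called in any of the 6 comparisons by limma. The background there was 3.82%, 4.08% and 9.47% of genes called in either direction for parotid, submandibular and sublingual gland against pancreas. It was 0%, 0.113% and 0.0667% for parotid against submandibular, parotid against sublingual and submandibular against sublingual gland. Levels of GYS2 and SLC2A2 outside liver were too low for a difference of 1 in log2(TPM + 1). Their tissue means there were at most 0.29 and 0.81 TPM. GCKR, at most 0.79 TPM in pancreas, parotid and submandibular gland, could reach it only against sublingual gland. The count of 0 thus does not show equal levels of these genes. At an unadjusted p under 0.05 by limma, 1368 and 2109 of 14991 genes differed between parotid and sublingual and between submandibular and sublingual gland. The only member differences under that p in the 6 comparisons were those of GCKR in these 2. GCKR in parotid and in submandibular gland was -0.72 and -0.82 log2 units from sublingual gland, with adjusted p-values of 0.5418 and 0.3079 by limma. Without the sublingual libraries of animals 1 and 4 these differences were -0.36 and -0.46 log2 units (adjusted p of 0.858 and 0.9986). PYGL had the largest difference, 1.34 ± 0.69 (SE) log2 units in sublingual gland over pancreas, with an adjusted p of 0.1846. The counts were not the same without animal 2 or without the parotid libraries of animals 2 and 5, the submandibular library of animal 5 and the sublingual library of animal 2. Without those 4 libraries PYGL was called higher in sublingual gland than in pancreas (2.00 log2 units, adjusted p = 0.006029 by limma), parotid (adjusted p = 0.01238) and submandibular gland (adjusted p = 0.02089). Over all genes, 5173, 3119 and 1761 of 14578 were called in either direction in the same fit and comparisons. Without the mucosa-rich sublingual libraries of animals 1 and 4, in contrast, the PYGL difference between sublingual gland and pancreas was -0.03 log2 units.

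Expressed as a percentage of the liver mean, the 6 genes fell into different ranges beside the hepatocyte markers of the same libraries. The median of the 12 hepatocyte markers was between 0.222% and 1.90% of liver in the 20 other libraries. KHK was at 0.848% to 4.31% of liver (median 2.03%) and exceeded all 12 markers in 19 of 20 libraries, the exception being the parotid library of animal 5, with 3.28% beside 3.69% for the highest marker. PYGL, at 2.05% to 89.5% of liver, exceeded all 12 markers in 20 of 20 libraries. GYS2 exceeded all 12 in 12 of 20 libraries. PCK1 exceeded them in 5, GCKR in 4 and SLC2A2 in 4 of 20 libraries, and these 3 genes had median levels of 0.785%, 0.564% and 0.899% of liver. These counts depended on the yardstick: the same 3 genes exceeded the median of the 12 markers in 15, 9 and 12 of 20 libraries, and ALB alone in 16, 10 and 14. Hepatocyte marker transcripts were thus measured at a low level in each of the 20 libraries. Pancreatic acinar markers likewise summed to 982 to 1925 TPM in the livers. The source of these low marker levels, and their part in the levels of these genes, was not tested.

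**Figure D3:**
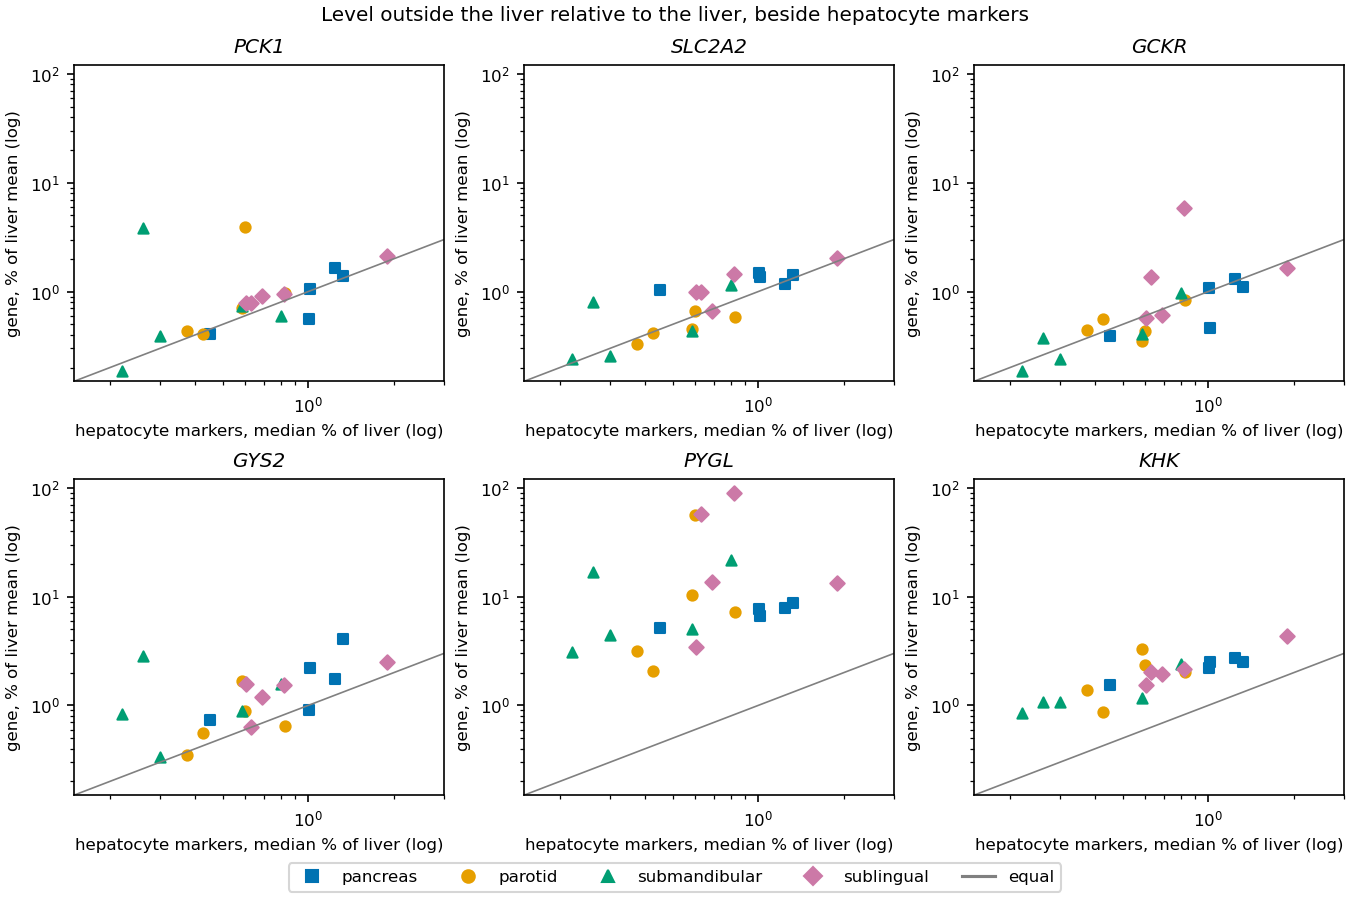
Level of each of the 6 genes in the 20 libraries that are not liver, as a percentage of its liver mean, against the median percentage of the 12 hepatocyte markers in the same library (both axes log), with a grey line where the 2 are equal. PYGL and KHK lie above the line in 20 of 20 libraries, GYS2 in 17, PCK1 in 15, SLC2A2 in 12 and GCKR in 9.

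The liver forms of 3 families of related enzymes or transporters had their highest mean share in liver, but only that of SLC2A2 separated every liver from all 20 other libraries. Shares here are of the summed TPM of a family per library. PCK1 made up 77.6% ± 12.3 (SD, n = 5) of PCK1 plus the mitochondrial PCK2 in liver, and its mean share was 49.0% to 57.1% elsewhere. The lowest liver share of PCK1, 57.8% in animal 5, was reached in 7 of the 20 other libraries, up to 74.5% in the sublingual gland of animal 2. PYGL made up 82.4% ± 12.7 of the 3 glycogen phosphorylases in liver, 23.6% ± 10.03 in pancreas, 14.04% ± 11.0 in parotid, 14.7% ± 5.14 in submandibular and 33.4% ± 32.5 in sublingual gland. The mucosa-rich sublingual libraries of animals 1 and 4 held the 2 highest PYGL shares outside liver, and that of animal 4, 78.9%, lay above the livers of animals 1 and 2 (69.1% and 69.5%). The muscle-type PYGM took 26.0% and 25.8% of the family in these 2 livers and 0.713% to 5.42% in the other livers. Skeletal muscle markers summed to 685 and 763 TPM in the same 2 livers and to 7.63 to 30.0 TPM in the others. The part of muscle RNA in the liver shares was not tested. Without the 6 gland libraries named above the PYGL means were 6.81%, 13.8% and 16.5% in parotid (n = 3), submandibular (n = 4) and sublingual gland (n = 2), those of PCK1 were 56.5%, 45.2% and 54.0%, and those of SLC2A2 were 6.55%, 4.03% and 6.40%. The brain-type PYGB had the largest mean share in parotid and submandibular gland, 67.6% ± 23.4 and 71.8% ± 14.2. In the muscle-rich sublingual library of animal 2, the muscle-type PYGM stood at 1374 TPM and took 99.7% of the family. SLC2A2 made up 92.4% ± 2.43 of SLC2A1, SLC2A2 and SLC2A4 in liver, 32.7% ± 13.4 in pancreas and means of 3.43% to 4.92% in the glands. Shares for GYS2 and FBP1 were not computed, because GYS1 and FBP1 had no row under their symbols, and SLC2A3 was left out of the transporter family for the same reason.

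**Figure D4:**
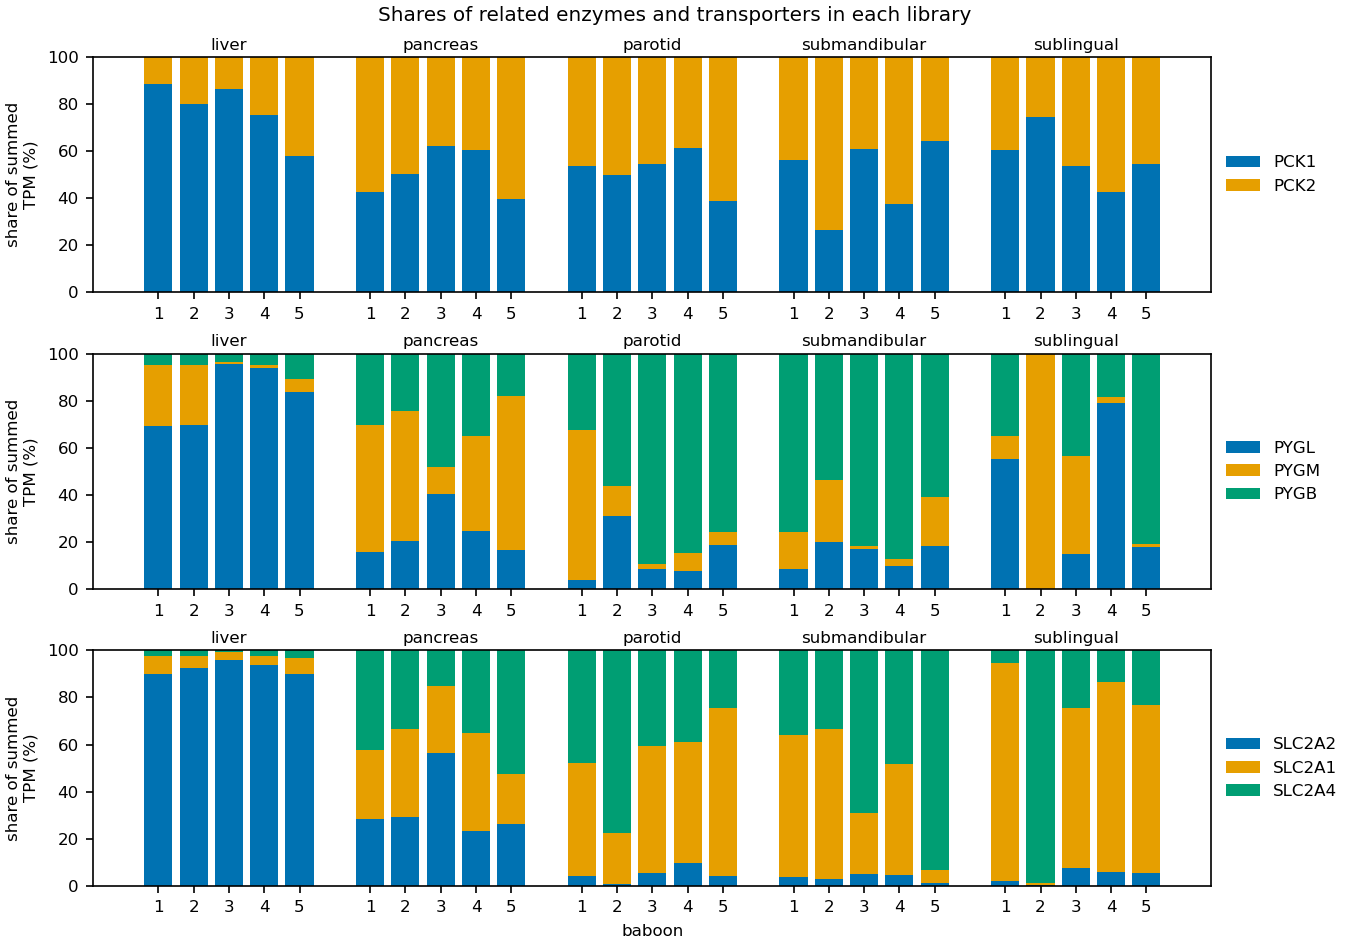
Share of each related gene in the summed TPM of its family, in percent, as 1 stacked bar per library, grouped by tissue and numbered by baboon. The liver form takes 77.6% to 92.4% on average in liver in each of the 3 families and a smaller mean share in every other tissue, while single libraries of other tissues reach the liver range for PCK1 and PYGL.

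The wider pathway followed the members only in part. Companion genes were listed by role, and 84 of the listed symbols had a row and were tested, with the 6 members not among them. Against pancreas 39 of 84 were called higher and 2 lower in liver by limma, against parotid 36 and 5, against submandibular 37 and 5, and against sublingual gland 34 and 13. The backgrounds for higher in liver are the 9.52% to 14.6% given above, and those for lower in liver were 2.86%, 2.84%, 2.61% and 5.93%. Genes of glucose release were higher in liver together with PCK1. G6PC, the catalytic subunit of glucose-6-phosphatase, reached 119 ± 61.0 TPM in liver, beside tissue means of 0.436 to 1.13 TPM elsewhere, 5.69 to 6.20 log2 units higher. Its partner SLC37A4, which carries glucose 6-phosphate into the endoplasmic reticulum, was 2.48 to 4.07 log2 units higher. PCK2 was 4.37 to 4.56 and pyruvate carboxylase (PC) 1.98 to 3.48 log2 units higher, and all of these passed the test in all 4 comparisons. The PC call against submandibular gland was lost without animal 1, 3 or 4 (adjusted p of 0.07346, 0.07178 and 0.07076 by limma). In all, 6, 5, 5 and 4 of 12 tested gluconeogenesis companions were called higher in liver against pancreas, parotid, submandibular and sublingual gland and 0 lower. The medians of that list were 1.45, 1.30, 1.16 and 0.02 log2 units, beside the all-gene medians given above. ENO1, PGK1 and TPI1, which also serve glycolysis, were not called against any gland.

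Glycogen genes went in both directions. Of 20 companions, 9, 8, 8 and 6 were called higher and 0, 2, 1 and 5 lower in liver in the same order of comparisons, with list medians of 1.47, 0.96, 1.27 and 0.62 log2 units. The glycogen-targeting phosphatase subunits PPP1R3B and PPP1R3G were higher in liver in all 4 comparisons, by 2.18 to 2.96 and 2.63 to 3.65 log2 units. PPP1R3C, of the same family, was higher against pancreas, parotid and submandibular gland (4.82, 4.48 and 3.58 log2 units) and missed the test against sublingual gland (1.99 log2 units, adjusted p = 0.06192 by limma), where it was called without the 2 mucosa-rich libraries (3.01 log2 units, adjusted p = 0.009569). PYGB was lower in liver than in parotid, submandibular and sublingual gland, by -2.46, -2.25 and -1.78 log2 units. Its call against sublingual gland was lost without animal 1, 3 or 5 (adjusted p of 0.1078, 0.1097 and 0.0762 by limma) and without the 2 mucosa-rich sublingual libraries (0.06919). That of PPP1R3B was lost without animal 4 (adjusted p = 0.06267) and without those 2 libraries (0.07373 by limma).

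In the list of fructose use, hexose phosphorylation and glycolysis, 9, 8, 8 and 8 of 23 companions were called higher and 2, 3, 3 and 7 lower in liver, with list medians of 1.03, 0.39, 0.95 and 0.05 log2 units. PKLR, the liver pyruvate kinase, was higher by 3.27 to 3.98 log2 units, and PFKFB1, the liver form of the enzyme that sets fructose 2,6-bisphosphate, by 4.07 to 4.97. HK1, PKM and LDHB were the 3 genes of this list called lower in liver against both parotid and submandibular gland, and they were among the 7 called lower against sublingual gland. HK1 was lower in liver than in the glands by -2.13, -1.90 and -2.86 log2 units and PKM by -2.51, -2.20 and -3.64 log2 units. The HK1 calls were lost against submandibular gland without animal 2 (adjusted p = 0.06428) and against parotid without the 4 gland libraries named above (adjusted p = 0.09412 by limma). LDHB, a lactate dehydrogenase subunit, was lower in liver in all 4 comparisons by -2.35 to -3.22 log2 units, with its call against pancreas lost without animal 3 (adjusted p = 0.05377). Of 8 tested hexose transporters other than SLC2A2, SLC2A9 was called higher and SLC2A12 lower in liver against submandibular gland, and SLC2A12 lower against sublingual gland. The shares over all genes were 13.9% higher and 2.61% lower against submandibular gland and 5.93% lower against sublingual gland. With 8 genes, such counts cannot be told from these shares. The SLC2A12 call against sublingual gland was lost in 5 of 14 alternatives, with adjusted p up to 0.06166 by limma, and that of SLC2A9 in 6 of 15, with adjusted p up to 0.2144. The medians of that list were 0.79, 0.02, 0.10 and -0.69 log2 units.

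The list of regulators had the highest share called among the 5 companion lists. It also holds TAT, IGFBP1 and PDK4, which are not regulators of the members. TAT and IGFBP1 are among those counted as higher in liver in each comparison. Of 21 tested, 15, 15, 15 and 16 were called higher in liver against pancreas, parotid, submandibular and sublingual gland and 0 lower, with list medians of 2.36, 2.29, 2.76 and 2.65 log2 units. HNF4A, a nuclear receptor that defines the hepatocyte, was at 38.5 ± 12.4 TPM in liver, 1.54 ± 0.62 TPM in pancreas and means of 0.221 to 0.512 TPM in the glands (n = 5 each), with differences of 3.94 to 4.96 log2 units. MLXIPL (ChREBP), the carbohydrate-responsive factor, was at 264 ± 69.2 TPM in liver and 5.01 to 5.97 log2 units higher than elsewhere. The glucagon receptor gene GCGR was 4.23 log2 units higher than in pancreas and 5.92 to 6.48 higher than in the glands. FOXA2, a factor shared by liver and pancreas, was at 27.1 ± 7.91 and 17.3 ± 2.49 TPM in these tissues. It was called against each gland (4.17 to 4.50 log2 units) but not against pancreas (0.58 log2 units, limma adjusted p = 0.1961), where the difference was -0.07 with TMM scaling.

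The liver of animal 5 stood below the other livers for most of these genes. It held the lowest value of 5 for 5 of the 6 members, and its GCKR was the second lowest. The same library was lowest for 43.4% of 11796 genes, for 51.9% of 77 companion genes and for 10 of the 12 hepatocyte markers. Relative to the mean of the other 4 livers, the ratio was 0.156 for PCK1, 0.393 for SLC2A2, 0.404 for KHK, 0.446 for GYS2, 0.486 for PYGL and 0.774 for GCKR. The median of these ratios was 0.425, beside 0.566 over 77 companion genes, 0.363 over the 12 hepatocyte markers and 0.818 over 11796 genes. ALB was at 14278 TPM there, against a mean of 33928 TPM in the other 4. The hepatocyte markers did not all fall there: 2 of 12 were above the mean of the other livers, by ratios up to 1.78, and their sum was 85728.5 TPM, beside 89541.5 to 106974 TPM in the other livers. The 13 mitochondrially encoded protein genes, a set chosen after its values were seen, took 33.5% of that library and 16.3% to 25.2% of the other 4 livers. The part of these differences in the low values was not tested, and animal 5 is also the only male, so animal and sex cannot be told apart. Without that library 6 of 6 members were again called higher in liver in all 4 comparisons by limma.

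**Figure D5:**
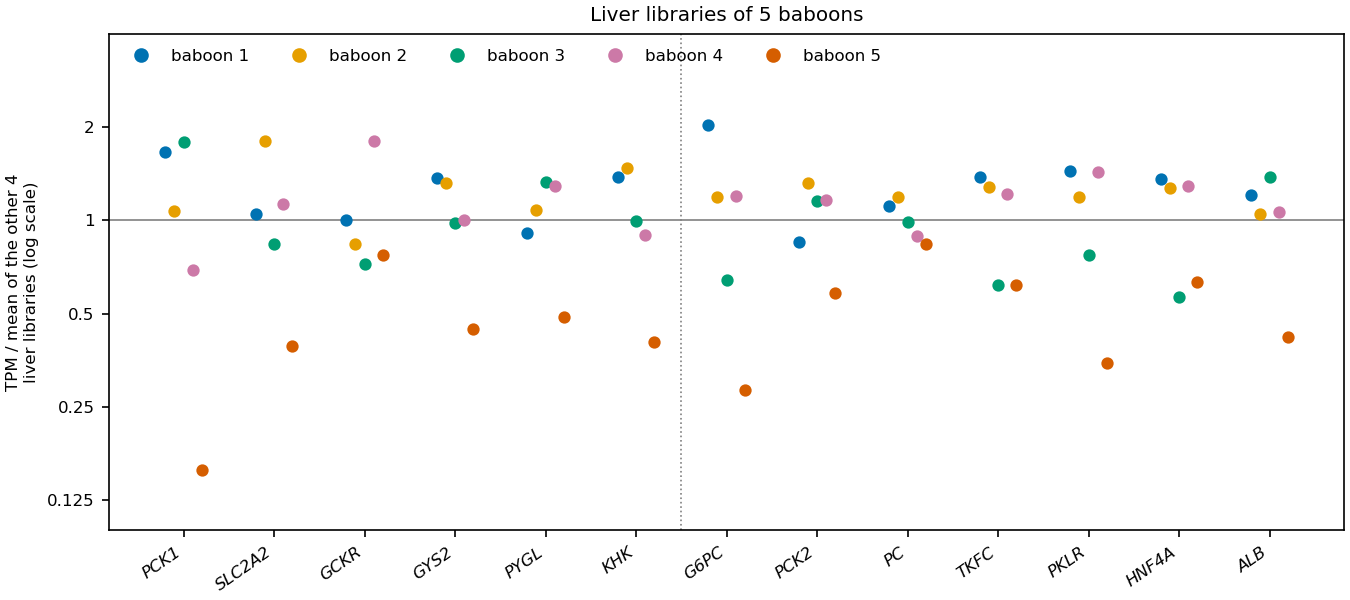
Each liver library relative to the mean of the other 4 livers (ratio, log axis) for the 6 members left of the dotted line and for 6 companion genes and ALB right of it, with 1 colour per baboon and a line at equality. The library of animal 5 lies lowest for 5 of 6 members, from 0.156 for PCK1 to 0.486 for PYGL, and second lowest for GCKR.

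The genes whose levels most resembled those of the members were listed by Pearson correlation of log2(TPM + 1), as a description over libraries that share animals and tissue sections. Over all 25 libraries the contrast of liver with the rest sets these values. RBP4, the plasma retinol carrier, was closest to PCK1 (r = 0.987), F12 to GCKR (0.988), KRT28 to GYS2 (0.995), KNG1 to KHK (0.993) and TMPRSS6 to SLC2A2 (0.996), while PYGL had its closest match in the sterol synthesis gene MSMO1 (0.967). Over the 20 libraries that are not liver, RBP4 was again closest to PCK1 (r = 0.934) and MSMO1 to PYGL (0.959). GCKR was there closest to CDCP1 (0.909), SLC2A2 to BHMT, the betaine methyltransferase (0.913), KHK to ZNF318 (0.883) and GYS2 to UGT3A1 (0.735). Among the members themselves r ran from 0.748 to 0.994 over all 25 libraries, with the lowest for GYS2 and PYGL. It ran from 0.164 to 0.697 over the 20 libraries that are not liver, where the highest was for KHK and SLC2A2.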

How the data were processed

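The authors deposited TPM per gene (kallisto abundances, per the name of the table), and each library summed to between 999999.5 and 1000000.6 TPM. Kallisto, cutadapt and HISAT2 are among the tools in the submitters' processing notes, which give no versions or roles. The index, genome build and annotation are not given in the sources used here, so no coordinates are printed. The number of reads is unknown, no counting interval is given, and precision rests on the spread over 5 animals per tissue.

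Of the 7 genes, 6 matched a row by symbol. Values were analysed as log2(TPM + 1) in limma 3.58.1 (R 4.3.3; eBayes with a trend over lmFit and contrasts.fit), with tissue and animal as terms, over all 25 libraries and the 14991 genes whose mean reached 1 TPM in any tissue. Benjamini-Hochberg adjustment ran over all genes within each of 10 tissue comparisons, and calls required an adjusted p under 0.05 and a difference of at least 1. The fit was tested on simulated data, drawn as independent normal values with the same spread in all tissues and no animal effect. Unequal spreads, mixed sections and paired tissues were not simulated. Tissues of 1 animal are paired by the labels. Deviations from tissue means correlated at 0.161 on average within an animal, from -0.0461 (pancreas and sublingual) to 0.552 (parotid and submandibular). The average between animals, -0.0354, largely follows from centring on the tissue means and is no separate comparison.

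The members and all gene lists were chosen with earlier results of these data known. The rule named every member, companion genes by their role, and the 3 genes most correlated with each member, of which the closest are printed. Where other genes are named, the text says so. Results of some companion genes are not reported here. Alternatives were no replicate block, only the compared tissues in the fit, TMM and median-of-ratios scaling, no filter (20524 genes), a minimum tissue mean of 5 TPM (9835 genes), a pseudocount of 0.1, leaving out each animal, and leaving out 4 gland libraries. For the hepatocyte percentages, ALB alone was tried. Fits without the sublingual libraries of animals 1 and 4 and without the liver library of animal 5 were added after seeing the data, as were family shares without 6 gland libraries. Python 3.11.15 with pandas 2.3.3 and numpy 2.4.6 served for tables, and matplotlib 3.10.9 for figures.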

Additional observations from a re-analysis of the deposited data

Results flagged for a closer look

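On the log2(TPM + 1) scale, in 3 of 30 groups of 5 libraries (6 genes in 5 tissues), 1 library lay apart from the other 4 by more than 0.71 of the whole range, the critical value of Dixon's test for 5 values, which chance exceeds in about 1 in 20 groups. GYS2 was at 7.42 TPM in the liver of animal 5, against 14.6 to 18.8 TPM in the other livers. PCK1 was at 13.6 TPM in the sublingual gland of animal 3, against 4.98 to 6.09 TPM, in the library whose hepatocyte markers summed to 1530 TPM, the highest sum outside liver. KHK was at 11.6 TPM in the submandibular gland of animal 2, against 4.06 to 5.59 TPM, where the hepatocyte markers summed to 737 TPM, the highest of the submandibular libraries. In the same library the salivary secretory markers summed to 2197 TPM, the lowest of that tissue. The part of these markers was not tested. On the TPM scale itself, tried after seeing the data, 8 of 30 groups passed, of which PCK1 in sublingual gland and KHK in submandibular gland passed on both scales and GYS2 in liver did not pass on TPM.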

How the results depend on the processing

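For the 23 liver comparisons of members other than PYGL against sublingual gland, 345 of 345 values over 15 alternatives kept their direction and call, with a highest adjusted p of 0.02804 by limma. PYGL in liver against sublingual gland ranged from 1.39 to 3.42 log2 units (adjusted p 0.000568 to 0.2282). It was not called with only the compared tissues in the fit (adjusted p = 0.06296), without a filter (0.07952), with a pseudocount of 0.1 (0.05768), or without animal 2, 3, 4 or 5. The fit without the replicate block changed no count of members called.

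Counts of members called between tissues that are not liver ranged, on leaving out each animal, from 0 to 1 for sublingual gland against pancreas, 0 to 1 for parotid against sublingual and 0 to 2 for submandibular against sublingual gland. They rose above 0 only without animal 2: PYGL in all 3 (1.84, -2.23 and -2.01 log2 units, adjusted p of 0.03366, 0.04664 and 0.03421 by limma), and GCKR in the last (-1.10, adjusted p = 0.04508). Over all genes, 3011, 404 and 2627 of 14718 were called in that fit. Without the 4 gland libraries the member counts were 1, 1 and 3, with PCK1 (-1.47, adjusted p = 0.04324 by limma) and KHK (-1.15, adjusted p = 0.04669) joining PYGL in submandibular against sublingual gland. The counts over all genes were then 5173, 3119 and 1761 of 14578. Without the 2 mucosa-rich sublingual libraries the 3 PYGL differences changed sign, to -0.03, 0.26 and 0.17. Of the other 33 such member differences, 15 changed sign in some alternative, none of these over 0.449 log2 units in size.

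Counts over all genes depended more on the fit. Against pancreas, parotid, submandibular and sublingual gland, the 2623, 2064, 2474 and 2316 genes called in liver became 1722 to 4308, 1335 to 3463, 1535 to 3567 and 1543 to 3794. For parotid, submandibular and sublingual gland against pancreas, 572, 611 and 1419 became 208 to 1226, 326 to 1283 and 393 to 5173. Between glands, 0 (parotid, submandibular), 17 (parotid, sublingual) and 10 (submandibular, sublingual) became 0 to 11, 0 to 3119 and 0 to 2627. The highest values for sublingual gland came without animal 2 or the 4 gland libraries. In sublingual gland over pancreas, the percentage of calls in the higher direction moved from 73.6% to 38.4% with TMM scaling.

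Companion genes called higher in liver numbered 29 to 51, 26 to 46, 28 to 45 and 27 to 38 in the 4 comparisons, and those called lower 1 to 5, 4 to 8, 4 to 8 and 7 to 13. FOXA2 in liver over pancreas became -0.071 with TMM and -0.11 with median-of-ratios scaling. HK1 in liver over pancreas, -0.023 log2 units at first, ranged from -0.067 to 0.026 on leaving out each animal and was 0.035 without the liver library of animal 5. PYGB, PPP1R3B and PPP1R3G against sublingual gland, SLC2A9 against submandibular gland, and SLC2A12 against submandibular and sublingual gland, each lost their call in at least 1 alternative. With ALB alone in place of the 12 markers, PYGL and KHK lay above it in 20 of 20 libraries, GYS2 in 18, PCK1 in 16, SLC2A2 in 14 and GCKR in 10. The cause of these changes was not tested. Depth is unknown, so values under 1 TPM outside liver, as for GYS2, GCKR and SLC2A2, carry an unknown counting error.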

Other observations

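G6PC2, a glucose-6-phosphatase relative named for its place in islet beta cells, did not follow G6PC. It was at 58.5 ± 34.8 TPM in liver, 22.5 ± 9.93 TPM in pancreas, 27.4 ± 19.1 TPM in parotid, 28.1 ± 30.3 TPM in submandibular and 116 ± 141 TPM in sublingual gland (SD, n = 5 each), and it was not called by limma in any comparison with liver. Its values did not separate the tissues, whereas those of G6PC were at least 39.4 TPM in each liver and at most 2.66 TPM elsewhere.

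PFKFB4, which sets fructose 2,6-bisphosphate as PFKFB1 does, was lower in liver than in pancreas by -3.28 log2 units (limma adjusted p = 5.58e-06), at means of 3.07 and 40.1 TPM. PFKFB1 went the other way, 4.97 log2 units higher in liver, with means of 48.6 and 0.58 TPM.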
